A study of Mus musculus and Homo sapiens with 34 samples.

Results

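The APOBEC3 cytidine deaminases were followed in spheroids of 3 colorectal carcinoma lines grown with or without an extracellular matrix. The members were matched by symbol in the deposited tables and are 5 human genes of 58870 (APOBEC3B, APOBEC3C, APOBEC3D, APOBEC3F and APOBEC3G, measured in HT29) and 1 mouse gene of 55450 (Apobec3, measured in CT26 and MC38). They were selected on measured values of these same libraries, the comparison of matrix with no matrix, so their values in that comparison are given as a description with no test. Of the members, tests are given for the level of Apobec3 in MC38 against CT26 and for libraries numbered 4 to 6 against those numbered 1 to 3. Genes of other lists are tested too, but those lists were drawn up with earlier results of these data known and are no independent evidence.

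HT29 is an established human line, and CT26 and MC38 are established mouse lines that come from different inbred strains, BALB/c and C57BL/6. Every library came from spheroids on day 7 of culture in ultra-low attachment plates, either of cells alone or of cells with SIS ECM (decellularised small intestinal submucosa, a matrix the labels call MatriSpheres once cells have assembled with it). There were 6 libraries of each culture in HT29 and in CT26, and 5 of each in MC38. Spheroids were pooled by 10 before RNA was taken, and the labels do not say that libraries came from separate cultures, so a p-value here speaks only to variation from library to library, part of which can be technical.

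APOBEC3 enzymes turn cytosine into uracil in single-stranded DNA. They are best known as restriction factors, which block retroviruses and retrotransposons by damaging or stalling the copied DNA, and several are also known to mutate the genome of tumour cells. Primates carry a row of APOBEC3 genes made by duplication, whose transcripts are alike enough for reads to fit several of them, while the mouse has a single Apobec3 gene between Cbx6 and Cbx7. In many cell types APOBEC3 genes are counted among the interferon-stimulated genes.

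The windows before the mouse Apobec3 start sites are shown because the interferon-stimulated genes of CT26 and Apobec3 had different values with SIS ECM. Apobec3 (ENSMUSG00000009585.18) lies on the plus strand of GRCm38 at chr15:79891659-79915906 with 20 annotated transcripts. RefSeq's table for build GRCm38.p6 gave it 2 start sites, and the 250 bases before each are at chr15:79892158-79892407 and chr15:79894773-79895022, both on the plus strand. Both windows lie inside the gene span given above. The bases before the first base of that span were not searched. Isg15 (chr4:156200819-156201068, minus strand) and Oas3 (chr5:120777660-120777909, minus strand) are set beside them as members of the interferon list that rose in CT26 and held the motif. They were chosen after their values were seen. The sequences run 5′ to 3′ on the gene's strand, and the capitals mark matches to the core of the interferon-stimulated response element (GAAA, any 2 bases, GAAA) on either strand.
Apobec3 window 1: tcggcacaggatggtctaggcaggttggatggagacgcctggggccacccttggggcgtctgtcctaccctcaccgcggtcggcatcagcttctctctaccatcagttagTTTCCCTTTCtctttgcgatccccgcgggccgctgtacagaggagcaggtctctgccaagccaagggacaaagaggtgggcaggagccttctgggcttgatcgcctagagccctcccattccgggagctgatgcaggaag
Apobec3 window 2: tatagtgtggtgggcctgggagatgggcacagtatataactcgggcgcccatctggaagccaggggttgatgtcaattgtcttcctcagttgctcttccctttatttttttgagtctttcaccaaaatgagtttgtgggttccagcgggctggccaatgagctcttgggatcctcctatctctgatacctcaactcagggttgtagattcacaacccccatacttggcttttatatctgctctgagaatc
Isg15: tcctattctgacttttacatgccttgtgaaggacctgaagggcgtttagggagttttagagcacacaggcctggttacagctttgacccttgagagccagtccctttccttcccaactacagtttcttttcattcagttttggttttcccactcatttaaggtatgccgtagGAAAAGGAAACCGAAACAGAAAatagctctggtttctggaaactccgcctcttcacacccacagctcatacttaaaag
Oas3: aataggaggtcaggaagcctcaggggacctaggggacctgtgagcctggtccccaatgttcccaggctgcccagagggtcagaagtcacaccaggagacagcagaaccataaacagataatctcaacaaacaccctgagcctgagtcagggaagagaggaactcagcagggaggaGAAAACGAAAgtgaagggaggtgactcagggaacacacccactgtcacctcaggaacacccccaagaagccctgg

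The Apobec3 window 1 held 1 match, TTTCCCTTTC, on the minus strand at 140 to 131 bases before the start site, and window 2 held none. Isg15 held 3 overlapping matches between 78 and 57 bases before its start, and Oas3 held 1 between 75 and 66 bases. The core was found in 2.98% of all 32851 windows of the same length. It was in 6 of the 22 interferon-list genes that have a window in the table, 5 of the 14 that rose in CT26 and 1 of the other 8, and in 936 of 27025 genes (3.46%) overall. Neither Apobec3 window held a GAS element (TTCNNNGAA, in 7.02% of windows) or the NF-kB consensus (in 3.90%), both searched on both strands. These are matches of letters in a window and were not tested as binding sites.

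The libraries held 25515239 to 37001506 expected counts in HT29 and 15826190 to 24196115 in the mouse lines. HT29 detected all 10 epithelial markers looked for. CT26 had Epcam, Cdh1, Cdx1 and Muc13 at 0 in all its libraries, while the other 6 markers summed to 42.6–57.3 CPM in cells alone. MC38 had Epcam, Krt19, Krt20 and Cdx2 at 0, and its other 6 markers summed to 0.673–1.02 CPM, although the labels name a colorectal carcinoma for both lines. Levels are given as CPM, counts per library total scaled within each line by edgeR's TMM factors, and differences are log2 fold changes of SIS ECM over cells alone with their standard errors from edgeR's quasi-likelihood fit.

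In HT29, APOBEC3G, APOBEC3C and APOBEC3F were each more than doubled in spheroids with SIS ECM, while APOBEC3B lay near its level without matrix. APOBEC3D was close to the limit of detection. Of the 5 human members, 4 passed the filter on low counts and 3 of these had an adjusted p under 0.05 with a higher level, beside 7.75% of the 15207 genes tested that were higher and 5.79% that were lower. The members were chosen from this contrast, so nothing is read from that share. The share of all genes whose groups do not overlap is not given here, so nothing is read from the members' separation either.

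APOBEC3G (ENSG00000239713.9) is the member first known for blocking HIV that lacks Vif. It ran from 4.70 CPM over a median of 5.10 to 5.66 CPM in cells alone and from 14.8 over 17.5 to 20.7 CPM with SIS ECM. Every SIS ECM library was above every cells-alone library, and the lowest SIS ECM library stood well clear of the highest library without matrix. The log2 fold change was 1.77 ± 0.08 (3.42-fold, 95% interval 1.61 to 1.94), resting on 139 to 183 expected counts per library in cells alone and 390 to 646 with SIS ECM. Among the 11327 genes tested whose mean log2 CPM reached 2, it ranked 1st by log2 fold change.

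APOBEC3C (ENSG00000244509.4), a single-domain member of broad expression, ran from 12.2 over 12.6 to 13.0 CPM in cells alone and from 31.2 over 33.1 to 39.5 CPM with SIS ECM. The groups did not overlap in any of the 6 libraries a side, and the values without matrix had an SD of 0.286 CPM (n = 6). The log2 fold change was 1.43 ± 0.06 (2.69-fold, 95% interval 1.31 to 1.55), the 6th highest by the same ranking. This was the member with the most counts, 344 to 464 in cells alone and 874 to 1233 with SIS ECM.

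APOBEC3F (ENSG00000128394.17), a double-domain restriction factor that acts beside APOBEC3G, ran from 2.30 over 3.15 to 3.38 CPM in cells alone and from 6.49 over 7.99 to 9.20 CPM with SIS ECM. All 6 SIS ECM libraries were again above all 6 without matrix. The log2 fold change was 1.38 ± 0.10 (2.60-fold, 95% interval 1.17 to 1.59), the 7th highest.

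APOBEC3B (ENSG00000179750.16) is the member most often linked to mutation in tumours, and its protein is mainly nuclear. It ran from 8.47 over 10.8 to 12.3 CPM in cells alone and from 10.4 over 11.7 to 13.4 CPM with SIS ECM. The groups overlapped: 3 of 6 SIS ECM libraries were above every cells-alone library and the other 3 lay within the range without matrix. The log2 fold change was 0.13 ± 0.09 with a 95% interval of −0.05 to 0.32, below the values of APOBEC3C, APOBEC3F and APOBEC3G. That gap was not tested, since the members were chosen on this contrast and APOBEC3B, APOBEC3F and APOBEC3G hold divided reads.

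APOBEC3D (ENSG00000243811.10), a double-domain member with weaker antiviral activity, had 1.08 to 15.18 expected counts per library and did not pass the filter, so it was not fitted. It ran from 0.0309 over 0.168 to 0.412 CPM in cells alone and from 0.0609 over 0.331 to 0.502 CPM with SIS ECM. The groups overlapped over most of their range, and 1 of the 6 SIS ECM libraries was above every cells-alone library. With so few counts a difference was not tested.

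**Figure D1:**
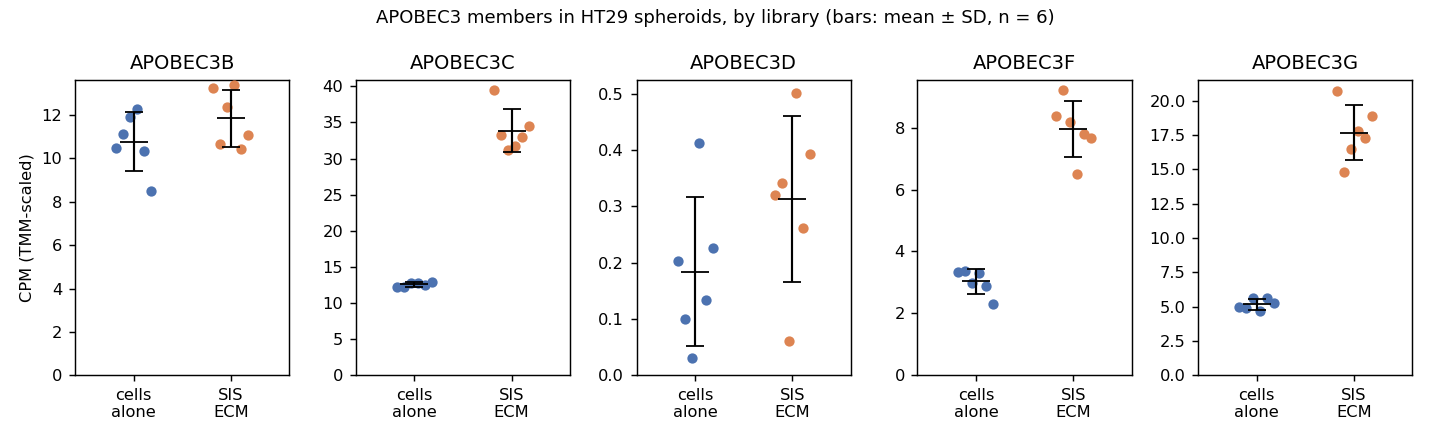
TMM-scaled CPM (vertical axis, each panel on its own scale from 0) of the 5 human members in HT29 spheroids of cells alone (blue) and with SIS ECM (orange); points are libraries, bars the mean and SD of 6 libraries. APOBEC3C, APOBEC3F and APOBEC3G have groups that do not overlap, and APOBEC3B and APOBEC3D have groups that do.

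The differences were of like size within each range of library numbers. These are differences of mean log2 CPM after a small constant was added to each CPM, which makes differences of genes of low CPM smaller. For APOBEC3G the difference was 1.64 in libraries 1 to 3 and 1.70 in libraries 4 to 6, and for APOBEC3C it was 1.44 and 1.34. APOBEC3F gave 1.28 and 1.24, and APOBEC3B gave 0.11 and 0.16. What the numbers stand for is not stated in the labels. In the authors' deposited table the log2 fold changes were 1.76 for APOBEC3G, 1.43 for APOBEC3C, 1.36 for APOBEC3F and 0.13 for APOBEC3B, and APOBEC3D was not listed.

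The human members are near copies of each other, and the deposited values show how far reads were shared. Expected counts come from a model that divides a read that fits several genes, which leaves values that are not whole. APOBEC3C was whole in all 12 libraries, within 0.03 counts, so no divided read is visible in its values. APOBEC3B was whole in 4 of 12 libraries, APOBEC3F and APOBEC3G in 1 each and APOBEC3D in none. Over all HT29 genes with a count, 22.2% had a value that was not whole.

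Summing APOBEC3A, APOBEC3B, APOBEC3D, APOBEC3F and APOBEC3G gave whole numbers within 0.03 counts in 10 of 12 libraries. The exceptions were SIS ECM replicate 2, at 0.49 from a whole number, and SIS ECM replicate 3, at 0.14. In those 10 libraries the divided reads therefore balanced within these genes. That sum does not depend on how reads were split among them, and it ran from 16.2 to 20.7 CPM in cells alone and from 35.1 to 42.7 CPM with SIS ECM, with no overlap and a log2 fold change of 0.98. All APOBEC3 genes together summed to 29.3–33.5 CPM in cells alone and 68.5–82.4 CPM with SIS ECM, a ratio of means of 2.26. The values of APOBEC3B, APOBEC3D, APOBEC3F and APOBEC3G taken singly are uncertain to the extent that reads were divided wrongly.

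The other human APOBEC3 genes were barely detected. APOBEC3A, known as a strong mutator of single-stranded DNA, had 0 to 2.09 expected counts per library. APOBEC3H had 0 to 4 counts in cells alone and 2 to 14 with SIS ECM, and neither gene passed the filter. APOBEC3B-AS1, a transcript antisense to APOBEC3B, was at 0 in all 12 libraries.

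Across the 12 HT29 libraries, genes whose log2 CPM followed APOBEC3G most closely outside the members included CST6 (Pearson r 0.985), CLDN2 (0.977), CXCL8 (0.976) and TMX4 (0.974), of 10991 compared. APOBEC3C had r 0.993, APOBEC3F 0.947 and APOBEC3B 0.421. These values mainly restate the gap between the cultures. With each culture's mean taken off, APOBEC3C had r 0.62, APOBEC3B 0.18 and APOBEC3F −0.38. The points share 12 libraries, and APOBEC3B, APOBEC3F and APOBEC3G hold divided reads, so these are descriptions.

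In the mouse lines Apobec3 had nearly the same mean with and without SIS ECM. In CT26 it ran from 25.9 over 31.7 to 33.4 CPM in cells alone and from 28.8 over 30.9 to 32.6 CPM with SIS ECM. No SIS ECM library was above every cells-alone library, and the SIS ECM libraries all lay inside the range without matrix. The log2 fold change was 0.0037 ± 0.08, with a 95% interval of −0.16 to 0.17, beside 6.15% of the 12269 genes tested that were called higher and 3.10% called lower. These were 1135 genes in all, or 2281 with the replicate block, where the Apobec3 log2 fold change was 0.0069.

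In MC38 the 5 cells-alone libraries had Apobec3 at 131, 130, 123, 111 and 105 CPM (replicates 1 to 5). The 5 SIS ECM libraries had 124, 124, 115, 119 and 117 CPM (replicates 1, 3, 4, 5 and 6). The SIS ECM values lay inside the range of the cells-alone values, whose spread was the wider of the pair (SD 11.4 against 4.09 CPM, n = 5 each). The log2 fold change was 0.00056 ± 0.07, with a 95% interval of −0.15 to 0.15, beside 3.82% of 13146 genes called higher and 5.36% called lower. The Apobec3 log2 fold change was 0.044 with the replicate block and 0.037 with the number-range term, where 3246 genes were called in place of 1206. In the authors' deposited table the log2 fold changes of Apobec3 were −0.0068 in CT26 and −0.0064 in MC38.

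The response in MC38 minus that in CT26 was −0.01 ± 0.11 on the log2 scale, with a 95% interval of −0.23 to 0.20. Within ranges of library numbers the sign of the Apobec3 difference was not steady. It was −0.12 in libraries 1 to 3 and 0.14 in libraries 4 to 6 of CT26, and −0.04 and 0.12 in MC38. The log2 fold changes of Apobec3, 0.0037 in CT26 and 0.00056 in MC38, were smaller than those of APOBEC3C (1.43), APOBEC3F (1.38) and APOBEC3G (1.77) in HT29. HT29 was processed as a separate table from another species and the members were chosen on these contrasts, so that gap was not tested.

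**Figure D2:**
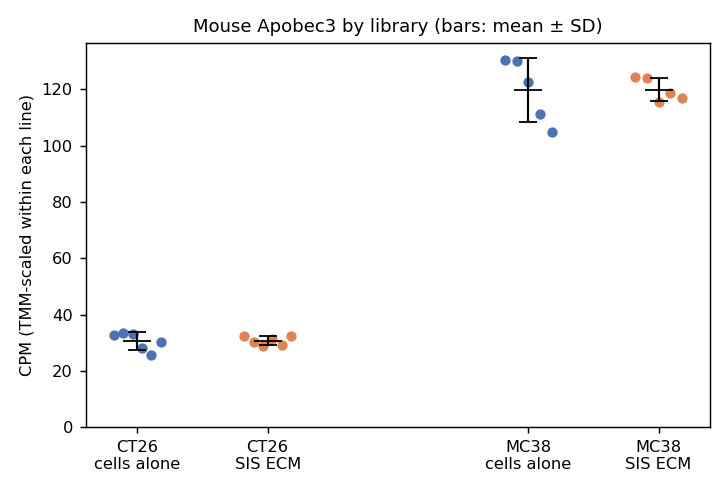
TMM-scaled CPM (vertical axis from 0, scaled within each line) of mouse Apobec3 in CT26 and MC38 spheroids of cells alone (blue) and with SIS ECM (orange); points are libraries in order of their number, bars the mean and SD. Within each line the SIS ECM libraries lie inside the range of the cells-alone libraries, and the MC38 libraries all lie above those of CT26.

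The level of Apobec3 differed between the mouse lines far more than between cultures. With the 11 libraries of cells alone scaled together, CT26 ran from 27.1 to 36.1 CPM (32.6 ± 3.73, SD, n = 6). MC38 had 121, 121, 114, 104 and 99.2 CPM (112 ± 9.93, SD, n = 5). All 5 MC38 libraries were above all 6 CT26 libraries. The share of all genes whose libraries separate in this way is not given here, so nothing is read from that separation. The log2 difference was 1.78 ± 0.09, a 3.43-fold higher level in MC38 (edgeR's quasi-likelihood test, Benjamini-Hochberg adjusted p = 1.00318e-10). Most genes differed between these lines: 42.3% of 13436 genes were called higher in MC38 and 37.9% lower. The line, the strain it came from and its culture history cannot be told apart here.

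Apobec3 also moved with the range of library numbers in MC38. Libraries 4 to 6 were lower than libraries 1 to 3 by a log2 difference of −0.16 ± 0.04 (edgeR adjusted p = 0.00870) in a line where 40.8% of genes were called in either direction. In CT26 the difference was −0.11 ± 0.06 (edgeR adjusted p = 0.168), where 52.7% of genes were called. With library totals used in place of TMM factors, a setting added after the data were seen, it was −0.24 with an edgeR adjusted p of 0.00356. In HT29 none of the 4 fitted members passed, with log2 differences of −0.08 (APOBEC3B), −0.02 (APOBEC3C), −0.21 (APOBEC3F) and 0.03 (APOBEC3G) and edgeR adjusted p-values of 0.664, 0.872, 0.266 and 0.880. There edgeR called 0.00% of the genes, with 2473 at an unadjusted p under 0.05. DESeq2 called 86 and limma-voom 0.

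Apobec3 overlaps D730005E14Rik, a transcript annotated at chr15:79889532-79893120 on the same plus strand. The spans of the 2 genes, introns included, have 1462 bases in common. Apobec3 was whole in all 12 CT26 libraries and not exactly whole in 10 of 10 MC38 libraries. Some MC38 values already lay within 0.03 of a whole number, such as 2910.99 in cells-alone replicate 1. Others lay further off, such as 2766.46 in SIS ECM replicate 4. Adding D730005E14Rik gave a whole number within 0.03 in all 10 MC38 libraries, which is informative only for those that lay further off. That transcript had 2.01 to 12.26 expected counts in MC38 and 0 to 2 in CT26, against 2220 to 2929 and 464 to 710 for Apobec3.

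Per kilobase of exon, Apobec3 stood at 3.25 ± 0.33 CPM in CT26 cells alone (n = 6) and at 12.7 ± 1.21 in MC38 cells alone (n = 5). Apobec1, the deaminase that edits apolipoprotein B RNA, stood at 7.08 ± 1.07 and 3.36 ± 0.40 CPM per kilobase. These levels were scaled within each line, so no ratio of the lines is read from them. With the cells-alone libraries of both lines scaled together, Apobec1 was lower in MC38 by a log2 difference of −1.25 ± 0.11 (edgeR adjusted p = 8.59e-08). The exon length of Apobec3 joins all annotated transcripts, 9454 bases, and its level per kilobase would be higher over a shorter transcript, so no order of Apobec3 and Apobec1 is read from these values in CT26. Apobec2, Apobec4 and A1cf were at or near 0 in both lines.

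Of the relatives outside the members, APOBEC1 in HT29 had 0.478 ± 0.15 CPM in cells alone and 0.334 ± 0.14 with SIS ECM (n = 6 each), which did not pass the test. ADAR, the adenosine deaminase of double-stranded RNA that has an interferon-induced form, rose in HT29 by a log2 fold change of 0.23 ± 0.06 (edgeR adjusted p = 0.0228), 1 of 5 relatives tested. Without SIS ECM replicate 3 or 5 its adjusted p was 0.0612 or 0.0616, and 0 of 5 passed. RBM47, a cofactor of APOBEC1, had a log2 fold change of 0.03 ± 0.04. In CT26 Adarb1, another adenosine deaminase, rose by 0.45 ± 0.11 (edgeR adjusted p = 0.0177), 1 of 4 tested. Without the filter on low counts its adjusted p was 0.0629. Adar there had 0.20 ± 0.12 (edgeR adjusted p = 0.330) and Apobec1 −0.31 ± 0.15 (edgeR adjusted p = 0.224). With the replicate block Apobec1 in CT26 was −0.32 with an edgeR adjusted p of 0.0218. In MC38 0 of 4 relatives passed edgeR's test, with 0 at an unadjusted p under 0.05 and 0 called by DESeq2 or limma-voom. With the number-range term Adar passed in MC38 (log2 fold change 0.18, edgeR adjusted p = 0.0155) and in CT26 (0.19, edgeR adjusted p = 0.0477).

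The genes on either side of the cluster were compared to see whether the neighbourhood moved with it. In HT29 CBX6, a Polycomb chromobox protein whose gene lies just upstream of the cluster, rose by 0.69 ± 0.06 (edgeR adjusted p = 7.11e-07), and all 6 SIS ECM libraries were above all without matrix. CBX7, the chromobox gene on the other side, had 0.03 ± 0.06 and did not pass. PDGFB, a growth factor gene, rose by 0.39 ± 0.07 and SUN2, a nuclear envelope gene, by 0.22 ± 0.05, while RPL3, a ribosomal protein gene, fell by 0.19 on the log2 scale. In all, 3 of 7 flanking genes tested rose and 1 fell, with a median log2 fold change of 0.06 against −0.0046 over all genes. With edgeR 0 of 7 passed in CT26 (2 at an unadjusted p under 0.05, 1 by DESeq2 and 0 by limma-voom) and 0 of 7 in MC38 (0 at an unadjusted p under 0.05 and 0 by either other tool). Cbx7 in CT26, at 0.29 ± 0.09, had an edgeR adjusted p of 0.0506. With the replicate block it was 0.0406, and Rpl3 in CT26 passed as well (log2 fold change 0.22, adjusted p = 0.0274). With the number-range term Rpl3 also passed in MC38, with a log2 fold change of −0.17 (edgeR adjusted p = 0.0315).

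**Figure D3:**
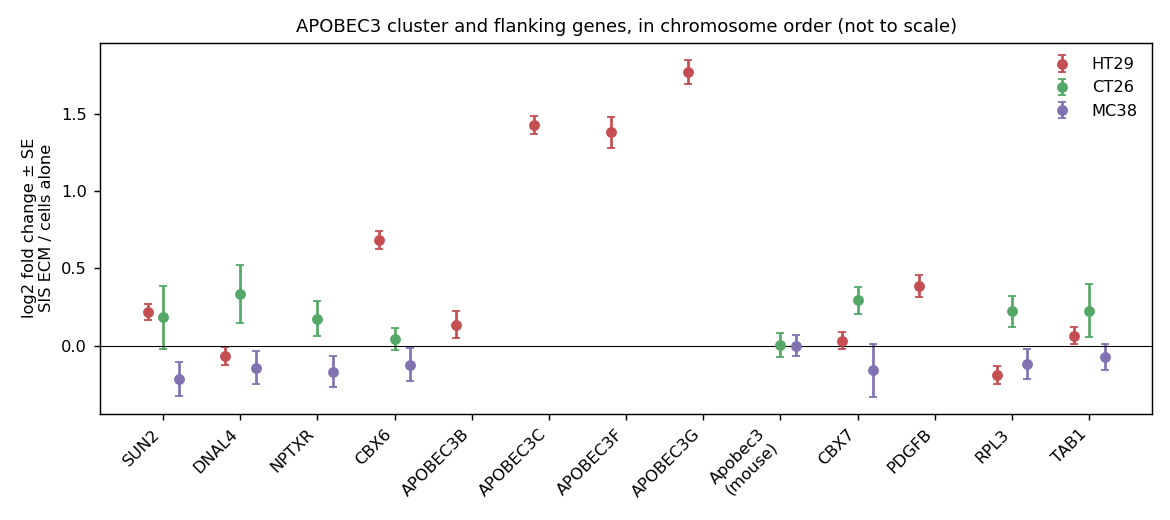
Log2 fold change of SIS ECM over cells alone with its SE (vertical axis) for the fitted APOBEC3 genes and their flanking genes in chromosome order (horizontal axis, not to scale), in HT29 (red), CT26 (green) and MC38 (purple). APOBEC3C, APOBEC3F and APOBEC3G lie between 1.38 and 1.77, above CBX6 at 0.69, and a flanking gene without a point in a line did not pass the filter on low counts.

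Interferon-stimulated genes, the wider class that APOBEC3 genes are often counted in, had different values beside the members in each line. In HT29 26 of 27 listed effectors rose and none fell, with a median log2 fold change of 0.57. IFI6, an inhibitor of flavivirus replication, rose by 1.00 ± 0.07 (edgeR adjusted p = 1.28e-07), IFI27 by 0.74 ± 0.06 and IFI44L by 0.94 ± 0.08. No effector reached the 1.38 of APOBEC3F. IRF9, part of the factor that interferon activates, rose by 0.22 ± 0.05 (edgeR adjusted p = 0.00331), among 3 of 17 signalling genes that rose.

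In CT26 20 of 27 listed effectors rose and 1 fell, with a median log2 fold change of 1.01 (0.0082 over all genes), beside Apobec3 at 0.0037. Oas2, a sensor that starts RNA decay, rose from 5.97 ± 1.08 to 19.0 ± 2.54 CPM (log2 fold change 1.68 ± 0.13, edgeR adjusted p = 1.7e-06). Xaf1 rose by 1.42 ± 0.09 and Oasl2 by 1.42 ± 0.13. Irf9 rose by 0.82 ± 0.09 and Tyk2 by 0.50 ± 0.10, among 5 of 17 signalling genes that rose. Isg15 and Oas3, whose windows are printed beside that of Apobec3, had log2 fold changes of 1.01 and 1.67.

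In MC38 2 of 26 effectors rose, Oasl2 by 0.33 ± 0.07 (edgeR adjusted p = 0.0156) and Ddx58, which encodes an RNA sensor, by 0.23 ± 0.06 (edgeR adjusted p = 0.0271), and the median was 0.09. With a term for the range of library numbers 7 rose, and with the replicate block 1 did, without Ddx58 (edgeR adjusted p = 0.0653). Irf9 rose by 0.30 ± 0.06, while Irf1 fell by 0.30 and Ifngr1 by 0.24 on the log2 scale, the latter with an edgeR adjusted p of 0.0406, or 0.0586 with the replicate block. These effectors stood higher in MC38 than in CT26 without any matrix: 23 of 27 were higher and 1 lower. Their median log2 difference was 2.63 (0.05 over all genes), beside the 1.78 of Apobec3. Over all genes 42.3% were higher and 37.9% lower. Other lists leaned the same way. Higher were 14 of 15 NF-kB genes, 13 of 17 signalling genes, 17 of 24 restriction factors and 6 of 7 flanking genes (1, 2, 3 and 0 lower). Of the cell cycle list 5 of 20 were higher and 12 lower, and of the uracil list 5 of 18 and 5. A link of Apobec3 to any list was not tested. Oas2 was at 6.32 CPM in CT26 and 39.0 CPM in MC38 cells alone (log2 difference 2.63 ± 0.16, edgeR adjusted p = 1.56e-09).

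**Figure D4:**
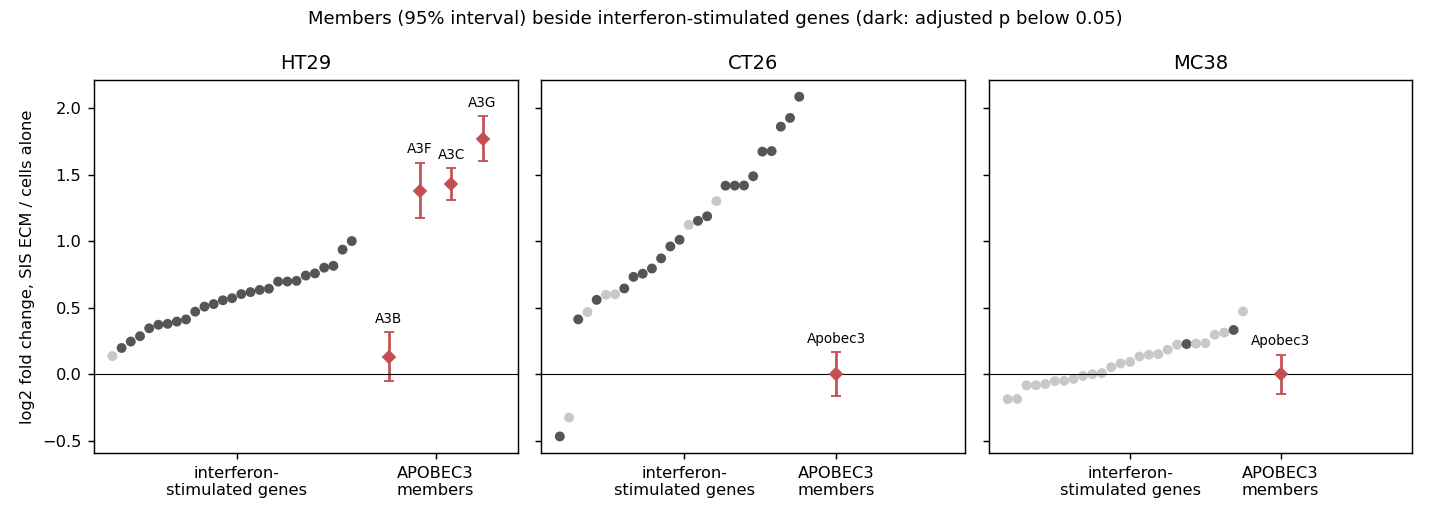
Log2 fold change of SIS ECM over cells alone (vertical axis) of listed interferon-stimulated genes, ordered by value (dark points passed the test at adjusted p 0.05, light points did not), and of the fitted APOBEC3 members with their 95% interval (red), in the 3 lines. In HT29 APOBEC3C, APOBEC3F and APOBEC3G lie above every listed gene, and in CT26 Apobec3 lies near 0 where 20 of 27 listed genes rose.

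Other restriction factors were counted beside the members. In HT29 10 of 23 rose and 1 fell, among them IFITM3 (0.84 ± 0.08), which blocks viral entry, and SAMHD1 (0.79 ± 0.07), which depletes the nucleotides for reverse transcription. IFITM1, a relative of IFITM3, rose from 20.1 ± 3.02 to 45.8 ± 3.17 CPM (SD, n = 6 each, edgeR adjusted p = 5.42e-08). In CT26 9 of 22 rose, among them Bst2 (1.39 ± 0.16), which tethers budding virions, Trim30a (0.95 ± 0.10) and Ifitm3 (0.95 ± 0.11). In MC38 Trim30a rose by 0.38 ± 0.10 and Ifitm2 fell by 0.23 on the log2 scale, of 24 tested. The medians over the lists were 0.14, 0.15 and 0.04.

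Genes of pathways known to act on APOBEC3B in other cells were listed too. Targets and regulators of NF-kB rose for 6 of 17 in HT29, led by CXCL8 (1.07 ± 0.07), CXCL1 (1.15 ± 0.12) and BIRC3 (0.56 ± 0.06), and with edgeR for 0 of 15 in CT26 and in MC38. At an unadjusted p under 0.05 there were 1 and 3, DESeq2 called 0 in CT26 and 3 lower in MC38, and limma-voom called 0 in each. The replicate block called 0 in CT26 and 1 lower in MC38, and the number-range term 1 lower in CT26 and 1 higher and 3 lower in MC38. Of 21 genes of the DREAM and E2F cell cycle list, LIN54 rose by 0.15 ± 0.05 and CDKN1A fell by 0.20 in HT29, calls that were lost in 12 and 9 of 20 alternatives. With edgeR 0 of 20 passed in CT26 (5 at an unadjusted p under 0.05, 2 by DESeq2, 0 by limma-voom). With the replicate block 1 rose and 2 fell there, and with the number-range term 1 rose and 9 fell. Cdkn1a, an inhibitor of cell division, fell by 0.66 in MC38 (edgeR adjusted p = 0.00423). Of 18 genes that remove or copy past uracil in DNA, POLK, a translesion polymerase, rose by 0.29 ± 0.06 in HT29. With edgeR 0 of 18 passed in CT26 and in MC38, with 4 and 3 at an unadjusted p under 0.05, 3 and 1 called by DESeq2 and 0 by limma-voom. The replicate block called 1 lower in CT26 and 1 higher in MC38, and the number-range term 4 lower in CT26 and 1 in each direction in MC38.

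APOBEC3 genes are strongly expressed in leukocytes, so leukocyte markers were summed beside the members. In HT29 the 14 markers summed to 1876–2043 CPM in cells alone and 1724–2094 CPM with SIS ECM, nearly all of it LYZ, which had 1936 CPM in cells alone and 1839 with SIS ECM. MS4A1 and NKG7 were at 0, PTPRC, the leukocyte-defining gene, had at most 2 counts in a library and CD3E at most 1. In CT26 the 16 markers summed to 10.5–14.4 CPM and 15.8–28.0 CPM, mostly Cd14 and Cd68, with Cd3e, Cd3d, Cd8a, Nkg7 and Cd163 at 0. In MC38 they summed to 3.16–4.89 and 2.85–4.72 CPM, with Cd3e, Cd3d, Cd8a, Ms4a1 and Nkg7 at 0. The 13 stromal markers summed to 2.25–3.38 CPM in cells alone and 2.98–3.56 CPM with SIS ECM in HT29, with KDR at 0. They summed to 34.5–54.1 and 42.6–67.3 CPM in CT26 and to 1606–1695 and 1373–1787 CPM in MC38, where 2 of 5 tested were called lower (Col1a1 and Fap). Of the 10 epithelial markers in HT29, 3 were called lower with SIS ECM (KRT20, VIL1 and MUC13) and 0 higher, with a median log2 fold change of −0.17. In CT26 1 of 2 leukocyte, 1 of 3 stromal and 1 of 3 epithelial markers tested were called higher and 0 lower. In HT29 1 of 2 stromal markers was called higher and 1 of 3 leukocyte markers lower. In MC38 0 leukocyte and 0 epithelial markers passed. Col1a1, Fap, KRT20, VIL1 and MUC13 are named after their values were seen, and the part of the markers in the members' values was not tested. In such bulk samples, fewer cells of a type and less RNA per cell cannot be told apart.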

How the data were processed

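Polyadenylated RNA was sequenced in 34 libraries, with paired ends and a stranded kit per the labels. The submitters' processing notes name cutadapt 1.18, STAR 2.7.0f, RSEM 1.3.1, limma and the builds hg38 and mm10. The deposited values are expected counts per gene in 1 table per species, with fractional values where reads were divided. Whether counting used strand is not stated in those sources. Log2 fold changes in the authors' deposited tables were copied for the members, and 34 per-sample columns of those tables were not used.

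Expected counts were rounded, and genes were kept by edgeR's filter at a minimum count of 10. Each line was fitted apart with TMM factors and edgeR 4.0.16 quasi-likelihood tests (R 4.3.3, limma 3.58.1). Adjusted p-values are Benjamini-Hochberg over all genes tested, with a threshold of 0.05. The fit was tried on data simulated for HT29 only, with libraries drawn independently, which does not cover the mouse fits. Alternatives were DESeq2 1.42.0, its size factors, limma-voom, no filter, unrounded counts, totals without TMM factors, the replicate block, a number-range term and each library left out. Totals without TMM factors (other than for SIS ECM in HT29) and the number-range term between lines were added after the data were seen. The members and lists were chosen with earlier results of these data known. Named genes were all members, relatives and flanking genes, the 3 with the smallest adjusted p per other list and line, the 2 highest markers per list and the 5 genes most like APOBEC3G.

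Libraries of one number deviated together in the mouse data. The correlation of deviations was 0.22 to 0.48 over 6 CT26 pairs, 0.19 to 0.32 over 4 MC38 pairs and 0.16 to 0.35 over 5 cells-alone pairs of the lines, against −0.10 to 0.06 in HT29. As each of these mouse correlations was over 0.1, the numbers were taken as pairing the mouse libraries in the replicate block. That block was an alternative only. The main fits of SIS ECM and of MC38 against CT26 held no term for number or range, so their standard errors and p-values ignore this pairing. A library correlated best with its own number in 2 of 6, 1 of 4 and 1 of 5 cases, and the other best matches lay within the same number range, so the range and the number are not told apart. The labels do not say what the numbers mark. Mouse sequences came from RefSeq tables and lengths from GENCODE, and human sequences were not used here. Some genes that the naming rule selects are not reported here.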

Additional observations from a re-analysis of the deposited data

How the results depend on the processing

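Over the alternatives run, the log2 fold changes of the HT29 members lay at 0.08 to 0.18 for APOBEC3B, 1.38 to 1.45 for APOBEC3C, 1.32 to 1.43 for APOBEC3F and 1.72 to 1.82 for APOBEC3G. Apobec3 lay between −0.05 and 0.03 in CT26, between −0.04 and 0.04 in MC38 and between 1.73 and 1.98 for MC38 against CT26. Of the range differences, APOBEC3C ran from −0.0522 to 0.0371 and APOBEC3G from −0.0272 to 0.108 as single libraries were left out. They changed sign without SIS ECM replicates 1 and 2 in turn, neither past the threshold. Apobec3 in the CT26 ranges was −0.24 with totals in place of TMM factors.

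Counts over all genes moved more. CT26 had 1135 genes called, 2281 with the replicate block and 3545 with the number-range term. MC38 had 1206, or 3246 with the range term. Leaving out single libraries gave 626 to 1948, with 648, 626, 663 and 1948 without cells-alone replicates 1 to 4, and 724 and 742 without SIS ECM replicates 4 and 6. The HT29 ranges gave 86 calls with DESeq2 and 431 without the filter, against 0. The interferon effectors that rose numbered 25 to 26 in HT29, 18 to 22 in CT26 and 1 to 4 in MC38 with single libraries left out. In MC38 this was 4 without cells-alone replicate 4, 2 without cells-alone replicate 5 or SIS ECM replicates 1 or 5, and 1 without any other library, and the restriction factors that rose there numbered 0 to 3. Of the genes named at the margin, LIN54 lost the threshold in 12, IFNGR2 in 11, RPL3 and CDKN1A in 9 and ADAR in 2 of 20 alternatives in HT29, and Adarb1 in 1 of 20 in CT26. In MC38 Ifngr1 lost it in 10, Ddx58 in 8, Trim30a and Ifitm2 in 6 and Irf1 in 1 of 18 (adjusted p = 0.0505). In CT26 Cbx7 passed in 5, Apobec1 and Rpl3 in 2 and Adar in 1 of 20, and in MC38 Adar and Rpl3 in 1 of 18 each. Among the relatives, the flanking genes and the list genes named by smallest adjusted p, the replicate block changed no other call. Marker genes, Isg15 and Oas3 were not followed singly in the alternatives. With the block 4 epithelial markers were called lower in HT29, against 3 in the main fit. The causes were not tested. APOBEC3D, under 16 counts in every library, was not fitted in these alternatives.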
